A study of Mus musculus with 22 samples.

Results

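The genes described here are those of the mouse mitochondrial genome, a small circular DNA that is read in long transcripts from both strands. They were chosen as all genes whose GENCODE symbol starts with mt-, matched to the deposited tables by Ensembl identifier, because the tables themselves write these symbols without that prefix. The annotation holds 37 such genes, and 35 of them had counts in at least 1 deposited table, out of 35255 genes listed in all. The 13 protein genes and 2 rRNA genes were listed in each table. Of the 22 tRNA genes, 20 were listed in normoxia, 19 in hypoxia and 6 in the tumors, while mt-Tf and mt-Tg were listed in none and mt-Tv in normoxia alone.

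The study sequenced bulk RNA of 22 libraries to compare mice lacking VISTA, an inhibitory immune receptor encoded by Vsir, with wild-type (WT) mice, all on a C57BL/6N background. Bone marrow myeloid progenitors of VISTA knockout (KO) and WT mice were cultured to day 4 in normoxia with GM-CSF and IL-6, which drives them towards myeloid-derived suppressor cells (MDSC), with 4 libraries per genotype that the design text calls independent. Myeloid cells of the same origin and genotypes were exposed to hypoxia for 24 hours, also with 4 libraries per genotype, and the labels do not repeat the cytokines for them. Tumors of MC38, a mouse colon carcinoma line, were taken at day 7 from VISTA KO and WT hosts, with 3 libraries per genotype, labelled as tumor tissue; purification of cells or pooling of animals is not mentioned. The labels do not name the KO allele or say that it is limited to a cell type. Outside the normoxia cultures the labels do not state that replicates came from separate cultures or animals, so p-values there measure the spread between these libraries, which may be technical.

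In mitochondria, a single-subunit RNA polymerase copies each strand nearly end to end, and the tRNAs that lie between most of the protein and rRNA genes are then cut out to release the individual RNAs. The protein genes encode core subunits of respiratory complexes I (the mt-Nd genes), III (mt-Cytb) and IV (the mt-Co genes) and of the ATP synthase, complex V (mt-Atp6 and mt-Atp8), and all other subunits come from nuclear genes. Most of the mature mRNAs and the rRNAs carry short poly(A) tails, while the tRNAs are short and fold tightly. In myeloid cells the respiratory chain is known for its part in the choice between oxidative and glycolytic metabolism.

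3 features of the mitochondrial sequence bear on what a count in these tables can mean, and the sequences below are taken from the GENCODE M21 transcripts (GRCm38), written 5′ to 3′ on the strand of the gene. The first set is the tRNA gene with the most counts summed over the normoxia libraries, mt-Tl1 for leucine (chrM:2676-2750, plus strand), the one with the most counts in hypoxia, mt-Tp for proline (chrM:15356-15422, minus strand), and mt-Tn for asparagine (chrM:5089-5159, minus strand), which had most of the few tRNA counts in the tumors. All are shown whole and no bases are capitalised.
mt-Tl1: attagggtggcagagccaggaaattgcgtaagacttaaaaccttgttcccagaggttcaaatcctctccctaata
mt-Tp: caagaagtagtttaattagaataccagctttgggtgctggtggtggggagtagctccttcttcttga
mt-Tn: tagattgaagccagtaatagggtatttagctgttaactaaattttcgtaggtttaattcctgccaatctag

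The second set shows genes that share bases. The last 43 bases of mt-Atp8 (chrM:7766-7969, plus strand) are also the first 43 of mt-Atp6, and mt-Nd6 and mt-Nd5 share 14 bases on opposite strands. The whole of mt-Atp8 and the last 60 bases of mt-Nd6 (chrM:13552-13611, minus strand) are shown because both genes were higher in the hypoxia than in the normoxia cultures of both genotypes, and capitals mark the shared bases. Whether reads were counted by strand is not given in the sources used here, so reads of mt-Nd6 and of the strand opposite to it cannot be told apart.
mt-Atp8: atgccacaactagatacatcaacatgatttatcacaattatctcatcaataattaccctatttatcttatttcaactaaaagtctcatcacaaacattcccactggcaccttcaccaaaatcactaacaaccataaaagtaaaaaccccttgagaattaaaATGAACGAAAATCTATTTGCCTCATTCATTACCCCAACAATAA
mt-Nd6: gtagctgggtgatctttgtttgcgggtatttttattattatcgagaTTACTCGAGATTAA

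The third set shows why counts of several protein genes cannot be assigned to the mitochondrion alone. A stretch of nuclear chromosome 1 (chr1:24611535-24616197, minus strand) carries 7 adjacent unprocessed pseudogenes that are 99.7% to 100% identical to mt-Nd4, mt-Nd4l, mt-Nd3, mt-Co3, mt-Atp6, mt-Co2 and the end of mt-Co1 over their aligned lengths. Bases 1063 to 1152 of mt-Co1 (chrM:6390-6479, plus strand) are shown beside the same bases of the pseudogene Gm29216 on chromosome 1 (chr1:24616099-24616188, minus strand) and of Gm13340, an older copy on chromosome 2 (chr2:22588496-22588585, minus strand). Capitals mark the bases that differ from mt-Co1. Counted from 1 at the start of mt-Co1, they are A1066T in Gm29216 and T1072C and C1134T in Gm13340, so the pseudogenes differ from the gene at 1 and 2 of 90 bases.
mt-Co1: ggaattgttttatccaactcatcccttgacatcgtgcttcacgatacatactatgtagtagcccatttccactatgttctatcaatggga
Gm29216: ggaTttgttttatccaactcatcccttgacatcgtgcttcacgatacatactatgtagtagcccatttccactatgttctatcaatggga
Gm13340: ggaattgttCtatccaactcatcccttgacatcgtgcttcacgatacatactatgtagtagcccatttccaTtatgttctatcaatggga

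The libraries held 23409142 to 23722932 counts in normoxia KO and 23486727 to 23667396 in normoxia WT, 30839108 to 30911687 in hypoxia KO and 31060342 to 31385825 in hypoxia WT, and 19119985 to 23089943 in tumor KO and 27452024 to 31716200 in tumor WT. Vsir was at 139 to 242 CPM (counts scaled to library size) in KO and 650.5 to 855 CPM in WT normoxia cultures, at 112 to 163 CPM in KO and 512 to 610.4 CPM in WT hypoxia cultures, and at 113 to 128 CPM in KO and 426 to 479.8 CPM in WT tumors, so each KO library lay below each WT library of its experiment and reads of the gene remained. Summed over a list of 12 neutrophil markers, the cultures held 46800 to 67600 CPM in KO and 33100 to 45000 CPM in WT in normoxia, and 51800 to 64400 CPM in KO and 25100 to 34400 CPM in WT in hypoxia, where the marker sums of the genotypes did not overlap in either condition. The 10 monocyte and macrophage markers summed to between 2900 and 3720 CPM over the cultures and to between 10800 and 12300 CPM over the tumors. The tumor libraries also held fibroblast markers (473 to 602 CPM in KO and 382 to 452 CPM in WT, 7 genes) and low levels of epithelial tumor cell markers (25 to 57.9 CPM in KO and 16.7 to 34.7 CPM in WT, 7 of 8 listed, Cldn4 absent). The epithelial list was not particular to the tumors. It summed to 44.5 to 78.8 CPM in KO and 69.5 to 98 CPM in WT in normoxia, with 4 of 8 listed. In hypoxia it summed to 108 to 169 CPM in KO and 247 to 288 CPM in WT. In such bulk samples, fewer cells of a type and less RNA per cell cannot be told apart.

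The genes of the mitochondrial genome took a few percent of all counts in the cultures and a small fraction of that in the tumors. Their share of the total was 5.51%, 4.55%, 5.36% and 5.72% in the normoxia KO libraries and 4.00%, 3.93%, 4.71% and 4.91% in the normoxia WT libraries. KO replicate 2 lay below WT replicates 3 and 4, so the genotypes overlapped, and the means were 5.28% ± 0.512 in KO and 4.39% ± 0.497 in WT (SD, n = 4 each). In hypoxia the share was 4.12%, 3.72%, 4.88% and 4.96% in KO and 5.01%, 4.33%, 4.42% and 4.06% in WT, with means of 4.42% ± 0.601 in KO and 4.46% ± 0.401 in WT (SD, n = 4 each). In the tumors it was 0.259%, 0.234% and 0.222% in KO and 0.212%, 0.112% and 0.211% in WT, with means of 0.238% ± 0.0191 in KO and 0.178% ± 0.0575 in WT (SD, n = 3 each). The tumor genotypes did not overlap, but KO replicate 3 and WT replicate 1 were close to each other and WT replicate 2 was far below the other tumor libraries. The ratio of the KO mean to the WT mean was 1.2 in normoxia, 0.992 in hypoxia and 1.34 in the tumors. The lowest culture library, hypoxia KO replicate 2, still had a share 14.3 times that of the highest tumor library. No test was made on a sum over these genes.

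**Figure D1:**
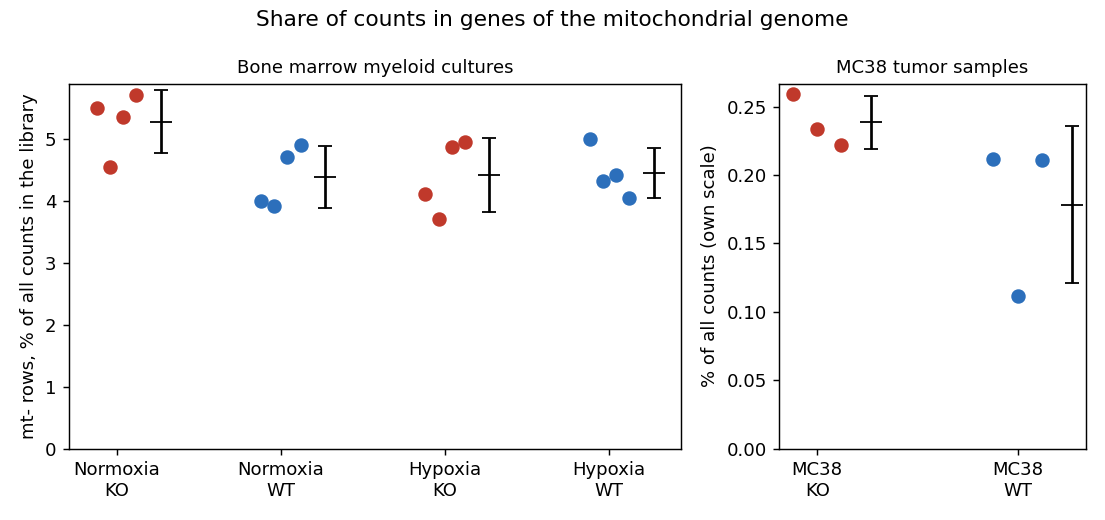
Share of all counts that fell on genes of the mitochondrial genome (percent, linear axes starting at 0), with 1 point per library, KO left of WT. A line marks the mean of each group, with SD as a bar. The normoxia and hypoxia cultures share the left panel, and the MC38 tumors have a right panel with its own scale. Normoxia KO libraries lie at 4.55% to 5.72% and normoxia WT libraries at 3.93% to 4.91%, hypoxia KO libraries at 3.72% to 4.96% and hypoxia WT libraries at 4.06% to 5.01%, and the tumor libraries stay at or below 0.259%.

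Protein genes made up nearly all of this signal. They held 5.09% of all counts in normoxia KO and 4.22% in normoxia WT, 4.34% in hypoxia KO and 4.38% in hypoxia WT, and 0.18% in tumor KO and 0.135% in tumor WT. The 2 rRNA genes, mt-Rnr1 (12S) and mt-Rnr2 (16S), which encode the RNAs of the mitochondrial ribosome, held 0.185% in normoxia KO and 0.162% in normoxia WT, 0.0735% in hypoxia KO and 0.077% in hypoxia WT, and 0.0579% in tumor KO and 0.0428% in tumor WT. Per 100 protein gene counts there were 3.65 ± 0.261 rRNA counts in normoxia KO and 3.85 ± 0.267 in normoxia WT, and 1.71 ± 0.164 in hypoxia KO and 1.75 ± 0.133 in hypoxia WT (SD, n = 4 each). The tumors stood apart from the cultures in this ratio, with 32.1 ± 1.58 in KO and 31.3 ± 2.17 in WT (SD, n = 3 each), and there mt-Rnr2 was the abundant rRNA: it had 40.7 counts per count of mt-Rnr1 in tumor KO and 38.0 in tumor WT, against 4.69 in normoxia KO and 4.30 in normoxia WT and 2.37 in hypoxia KO and 2.32 in hypoxia WT. The tRNA genes together had 1001 to 1327 counts per library in normoxia KO and 1078 to 1238 in normoxia WT, 662 to 918 in hypoxia KO and 865 to 1096 in hypoxia WT, and 5 to 10 in tumor KO and 13 to 17 in tumor WT. The tumor WT libraries were deeper. As a share of all counts the tumor genotypes overlapped, at 2.35e-05% to 4.33e-05% in KO and 4.1e-05% to 5.72e-05% in WT.

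Within the cultures mt-Co1, the catalytic subunit of cytochrome c oxidase, was among the most counted genes of the whole transcriptome. It ranked 1 to 3 in the normoxia KO libraries and 1 to 2 in the normoxia WT libraries, of 23912 genes listed. In hypoxia mt-Atp6, the subunit through which protons pass in the ATP synthase, was the most counted mitochondrial gene and ranked 4 to 6 in KO and 3 to 5 in WT, with mt-Co1 at 6 to 8 in KO and 6 in WT, of 33265 genes listed. In the tumors mt-Co1 ranked 197 to 235 in KO and 251 to 527 in WT, of 24251 genes listed.

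Expressed as RPKM (CPM divided by the length of the gene in kilobases), the highest gene differed between the 3 experiments and was the same in both genotypes. In normoxia mt-Co1 was highest, at a mean of 11352 RPKM in KO and 8958 RPKM in WT, and its libraries overlapped those of mt-Atp6, which in turn overlapped those of mt-Co2. In hypoxia mt-Atp6 was highest, at 16554 RPKM in KO and 15717 RPKM in WT, and neither its libraries and those of mt-Atp8, next in order, nor those of mt-Atp8 and mt-Co2 overlapped in KO. In the tumors mt-Co3 was highest, at 438 RPKM in KO and 336 RPKM in WT, and overlapped mt-Co1 in KO. The lowest of the 15 protein and rRNA genes was mt-Rnr1 in all 6 groups, and the ratio of highest to lowest mean was 32.1 in normoxia KO and 28.5 in normoxia WT, 70.9 in hypoxia KO and 65.6 in hypoxia WT, and 30.0 in tumor KO and 29.4 in tumor WT. The labels' protocols name no step that removes rRNA.

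The division of the 13 protein genes' counts among themselves differed between the experiments, and for mt-Co1, mt-Atp6 and mt-Co3 more than between the genotypes. mt-Co1 held 33.2% in normoxia KO and 33.7% in normoxia WT, 19.9% in hypoxia KO and 19.3% in hypoxia WT, and 35.9% in tumor KO and 35.8% in tumor WT. mt-Atp6 held 13.4% in normoxia KO and 13.3% in normoxia WT, 25.7% in hypoxia KO and 24.9% in hypoxia WT, and 14.0% in tumor KO and 13.9% in tumor WT. mt-Co3, a core subunit of cytochrome c oxidase, held 8.16% in normoxia KO and 8.62% in normoxia WT, 10.1% in hypoxia KO and 10.8% in hypoxia WT, and 19.1% in tumor KO and 19.5% in tumor WT. For each of these the gap between genotypes was smaller than that between the hypoxia and normoxia cultures. mt-Nd6, the complex I gene that is the only protein gene on the minus strand, held 1.16% in normoxia KO and 1.14% in normoxia WT, 3.56% in hypoxia KO and 3.94% in hypoxia WT, and 0.736% in tumor KO and 0.725% in tumor WT. mt-Nd4, another membrane subunit of complex I, held 7.15% in normoxia KO and 6.58% in normoxia WT, 5.42% in hypoxia KO and 4.75% in hypoxia WT, and 2.80% in tumor KO and 2.78% in tumor WT. In both culture conditions each KO library was above each WT library for mt-Nd4 (5.37% to 5.46% against 4.44% to 5.06% in hypoxia) and mt-Cytb. Both overlapped in the tumors. In hypoxia mt-Nd1 held 6.31% in KO and 7.21% in WT, and mt-Nd2 3.36% and 3.87%. In normoxia mt-Nd1 held 5.69% in KO and 6.11% in WT, and mt-Nd2 2.89% and 3.06%. For both genes the genotype gap in hypoxia was larger than the gap between the KO cultures. It was smaller than the gap between the WT cultures. No test was made on these shares.

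**Figure D2:**
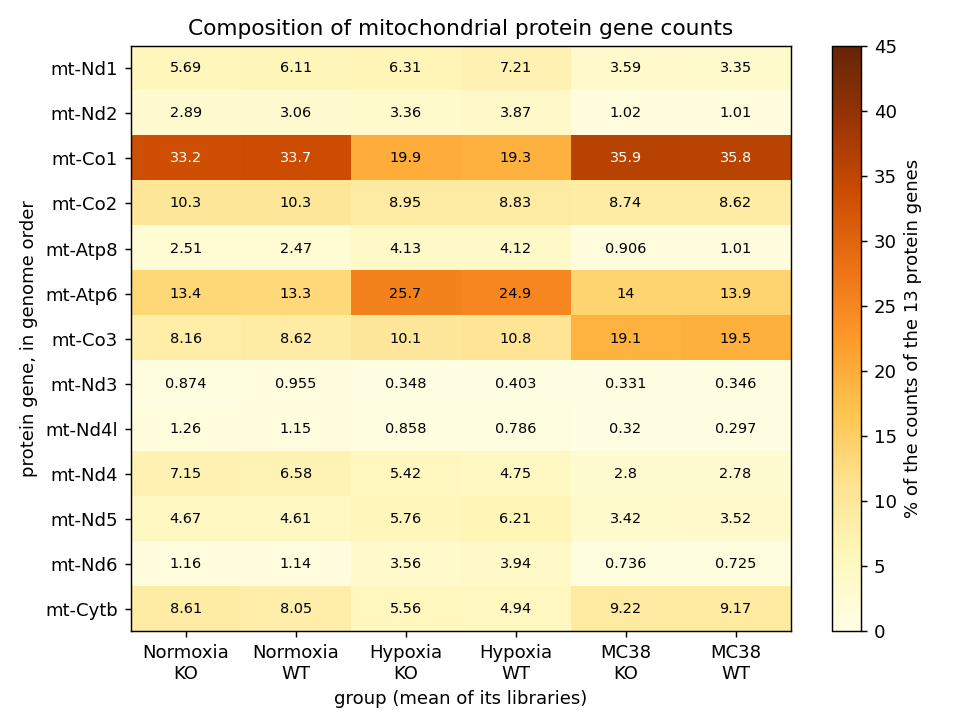
Mean percentage of the counts of the 13 mitochondrial protein genes that fell on each gene, by group (columns, KO left of WT within each experiment), as a colour scale with the value written in each cell. Neighbouring KO and WT columns are close for mt-Co1, mt-Atp6 and mt-Co3. mt-Atp6 and mt-Nd6 are high in hypoxia (25.7% and 3.56% in KO) and mt-Co3 is high in the tumors (19.1% in KO).

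The comparison of VISTA KO with WT cultures in normoxia asked whether loss of the receptor changed these genes, and few of them passed the test. Of 27 members that passed the filter on low counts, 3 were higher in KO and 0 lower at an adjusted p under 0.05 (edgeR's quasi-likelihood test, Benjamini-Hochberg over all genes), a share to be read against the 7.13% of all 13950 genes tested that were higher and the 4.17% that were lower. The 3 were mt-Nd4l, mt-Nd4 and mt-Cytb. All 13 protein genes had a log2 fold change above 0, with a median of 0.37 and a range of 0.23 to 0.50, where the median over all genes tested was -0.02, and all 13 had an unadjusted p under 0.05. Since these genes are cut from shared transcripts and scale together with the mitochondrial share, the 13 values are not separate observations.

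mt-Nd4l, a small membrane subunit of complex I, had 693, 523, 645 and 803 CPM in KO and 423, 417, 506 and 536 CPM in WT. KO replicate 2 lay below WT replicate 4, and all other KO libraries lay above all WT libraries. Its log2 fold change was 0.50 (SE 0.13), with an adjusted p of 0.0345 by edgeR's quasi-likelihood test. mt-Nd4, transcribed on the same messenger and sharing 7 bases with it, had 3995, 3017, 3839 and 4204 CPM in KO and 2365, 2395, 3004 and 3055 CPM in WT. Again KO replicate 2 was the low KO library and sat between the WT libraries. Its log2 fold change was 0.48 (SE 0.13), with an adjusted p of 0.0375 by edgeR's quasi-likelihood test.

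mt-Cytb, the only mitochondrial subunit of complex III and without a nuclear copy among those counted here, had 4542, 3796, 4692 and 5083 CPM in KO and 2839, 2935, 3767 and 3699 CPM in WT. Every KO library was above every WT library, though KO replicate 2 and WT replicate 3 were nearly level. Its log2 fold change was 0.45 (SE 0.13), with an adjusted p of 0.0417 by edgeR's quasi-likelihood test. It and mt-Nd3 were the 2 tested members without overlap between the groups, against 10.7% of all genes that were higher without overlap. These 3 calls were near the threshold: each was lost on leaving out KO replicate 1, 3 or 4 or WT replicate 1, 2 or 4, and the number of members called was 8 without KO replicate 2 and 4 without WT replicate 3. DESeq2 called 8 members.

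The other members differed less. mt-Nd6 had 621, 524, 632 and 656 CPM in KO and 381, 422, 546 and 523 CPM in WT, where KO replicate 2 was level with the higher WT libraries, with a log2 fold change of 0.38 (SE 0.12) and an adjusted p of 0.0663 by edgeR's quasi-likelihood test. mt-Nd1, the complex I subunit at the entry to the quinone site, had the largest p of the protein genes, with 3192, 2530 (KO replicate 2), 3087 and 3116 CPM in KO and 2222, 2395, 2531 and 2833 CPM in WT. 3 KO libraries lay above every WT library and the other one within them, and the log2 fold change was 0.26 (SE 0.11), with an adjusted p of 0.126 by edgeR's quasi-likelihood test.

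mt-Rnr2 had 1580.4, 1432, 1474 and 1814 CPM in KO and 1231, 1156, 1247 and 1459 CPM in WT. The WT library at 1459 CPM reached into the KO range. Its log2 fold change was 0.31 (SE 0.10), with an adjusted p of 0.0754, and that of mt-Rnr1 was 0.17 (SE 0.12), with an adjusted p of 0.348, both by edgeR's quasi-likelihood test. mt-Rnr1 had 308, 297, 364 and 382 CPM in KO and 246, 277, 337 and 339.6 CPM in WT, so its groups overlapped widely.

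Of the 20 tRNA genes listed in normoxia, 12 passed the filter and 0 were called by edgeR's quasi-likelihood test, with 0 at an unadjusted p under 0.05 and a smallest adjusted p of 0.193. Their log2 fold changes ran from -0.20 to 0.50, 10 of them above 0, with a median of 0.13. mt-Tl1 had 16.5, 10.3, 11.8 and 10.4 CPM in KO and 9.25, 11.9, 8.40 and 10.7 CPM in WT, so 1 KO library stood above the rest and the others were mixed with WT (log2 fold change 0.29, SE 0.17). mt-Tp had 11.3, 10.5, 11.6 and 8.48 CPM in KO and 11.7, 10.9, 10.4 and 7.92 CPM in WT, with overlapping ranges (log2 fold change 0.03, SE 0.14). mt-Tw, for tryptophan, had the smallest p and a log2 fold change of 0.50 (SE 0.25) at levels of only 0.755 to 1.24 CPM in KO and 0.539 to 0.817 CPM in WT.

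Markers of granulocytes moved with genotype in the same libraries, where 7.13% of all genes tested were higher in KO and 4.17% lower. Of the 12 neutrophil markers 7 were higher in KO and 0 lower, Ltf (lactoferrin) with a log2 fold change of 0.83 (SE 0.18), Ly6g with 1.11 (SE 0.25), Camp with 0.80 (SE 0.14) and Csf3r, the G-CSF receptor, with 1.08 (SE 0.22). Mast cell and basophil markers summed to 93.3 to 128 CPM in KO and 44.5 to 64.2 CPM in WT and were higher for 7 of 7 tested, eosinophil markers summed to 131 to 192 CPM in KO and 98.3 to 129 CPM in WT and were higher for 4 of 7 tested, and monocyte and macrophage markers summed to 3500 to 3720 CPM in KO and 2910 to 3590 CPM in WT and were higher for 3 of 10. The neutrophil count of 7 was 2 without KO replicate 3, 3 without KO replicate 4 or WT replicate 2, 1 without WT replicate 1 and 4 without WT replicate 4. The eosinophil count of 4 was 2 without WT replicate 1 or 4. Erythroid and T and NK cell markers summed to under 2 CPM in each normoxia library, with Cd3e, Cd8a and Ncr1 not listed. The part of this cell composition in the mitochondrial values was not tested.

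The hypoxia cultures asked the same question at low oxygen, and there no mitochondrial gene passed the test between the genotypes. Of 23 members tested, 0 were called in either direction by edgeR's quasi-likelihood test, where 34.9% of all 15018 genes tested were called. 3 members had an unadjusted p under 0.05, DESeq2 also called 0, and 0 were without overlap between the groups, against 16.9% of all genes higher and 15.7% lower without overlap. The protein genes were divided, 7 with a log2 fold change above 0 and 6 below, and their median was 0.03 against -0.01 over all genes.

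mt-Nd4 had 2268, 1995, 2633 and 2649 CPM in KO and 2277, 2142, 1884 and 1898 CPM in WT. 2 KO libraries were above the WT range and the other 2 inside it, and the log2 fold change was 0.22 (SE 0.10), with an adjusted p of 0.108 by edgeR's quasi-likelihood test. mt-Cytb had 2296, 2014, 2720.2 and 2769 CPM in KO and 2528, 2109, 2004 and 1911 CPM in WT, with the same 2 KO libraries on top and a log2 fold change of 0.20 (SE 0.11, adjusted p 0.199 by edgeR's quasi-likelihood test). In the other direction, mt-Nd3, a small complex I subunit that holds a loop known to move between the active and resting enzyme, had 154, 147, 139 and 164 CPM in KO and 204, 170.3, 179 and 144 CPM in WT. The lowest WT library, replicate 4, was inside the KO range, and the log2 fold change was -0.21 (SE 0.095), with an adjusted p of 0.111 by edgeR's quasi-likelihood test.

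mt-Nd2, a membrane subunit of complex I, had 1435, 1277, 1519.6 and 1679.7 CPM in KO and 2014, 1592, 1618 and 1471 CPM in WT (log2 fold change -0.18, SE 0.11, adjusted p 0.207 by edgeR's quasi-likelihood test). WT replicate 1 stood above all other libraries and the rest were mixed. mt-Nd6 had 1504, 1240.1, 1808 and 1727 CPM in KO and 1924, 1763, 1705 and 1428 CPM in WT, overlapping over most of their range, with a log2 fold change of -0.12 (SE 0.12). mt-Atp8, a small subunit of the ATP synthase, had the largest p of the protein genes, with 1618, 1636, 1996 and 2004 CPM in KO and 2034 (WT replicate 1), 1678, 1694 and 1703 CPM in WT and a log2 fold change of 0.03 (SE 0.094).

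The rRNA genes overlapped between the hypoxia genotypes as well. mt-Rnr1 had 216, 180.45, 240.2 and 255 CPM in KO and 269, 225, 230.5 and 192 CPM in WT (log2 fold change -0.04, SE 0.12), and mt-Rnr2 had 574, 478, 503 and 535 CPM in KO and 614, 524, 569 and 418 CPM in WT (log2 fold change -0.02, SE 0.11). The highest library of both genes was a WT one, and the lowest was a KO library for mt-Rnr1 and a WT library for mt-Rnr2. Of 19 tRNA genes listed, 8 passed the filter, 6 of them with a log2 fold change below 0 and none called. mt-Tc, for cysteine, had the smallest adjusted p of all members, 0.0686 by edgeR's quasi-likelihood test, with 2.03, 1.88, 1.63 and 2.57 CPM in KO and 3.57, 3.01, 2.77 and 2.07 CPM in WT and a log2 fold change of -0.49 (SE 0.20). 1 WT library, replicate 4, lay among the KO libraries. mt-Tl1 had 2.03, 2.17, 2.61 and 4.06 CPM in KO and 3.86, 3.97, 4.17 and 2.97 CPM in WT (log2 fold change -0.46, SE 0.21), and mt-Tp had 15.2, 13.1, 19.7 and 16.2 CPM in KO and 20.1, 20.8, 18.2 and 17.3 CPM in WT (log2 fold change -0.25, SE 0.12). For both, WT was higher in most libraries but the groups overlapped.

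In these hypoxia libraries all 12 neutrophil markers, all 8 eosinophil markers and all 8 mast cell and basophil markers were higher in KO, and 4 of 4 erythroid markers tested were lower. Of all genes tested there, 34.9% were called in either direction. Eosinophil markers summed to 2230 to 3960 CPM in KO and 1130 to 1790 CPM in WT, and erythroid markers to 7.76 to 15.6 CPM in KO and 33.5 to 115 CPM in WT. The part of this difference in the mitochondrial values was not tested.

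The tumors compared KO with WT hosts, and no member passed the test, although all fold changes lay on the KO side. Of 15 members tested 0 were called by edgeR's quasi-likelihood test, against 6.32% of all 14370 genes, 1 had an unadjusted p under 0.05 and DESeq2 also called 0. All 15 had a log2 fold change above 0, with a median of 0.41, and 7 were higher without overlap between the groups, against 13% of all genes. Here too the members scale together with the mitochondrial share of each library, so the 15 values are not separate observations. Without WT replicate 2, whose mitochondrial share was 0.112%, the median was 0.15.

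mt-Nd4l had the smallest p, with 6.14, 5.85 and 5.31 CPM in KO and 4.90, 2.60 and 4.56 CPM in WT. Each KO library was above each WT library, and the log2 fold change was 0.53 (SE 0.23), with an adjusted p of 0.212 by edgeR's quasi-likelihood test. mt-Co1 had 714, 628 and 598 CPM in KO and 581, 327 and 533 CPM in WT (log2 fold change 0.43, SE 0.21, adjusted p 0.329 by edgeR's quasi-likelihood test). mt-Co2, the subunit that takes electrons from cytochrome c, had 165, 156 and 150.1 CPM in KO and 138, 74.97 and 137 CPM in WT (log2 fold change 0.43, SE 0.24). In each of these the WT library far below the others was replicate 2, and the remaining WT libraries lay just under the KO libraries.

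mt-Cytb had 184, 164 and 151 CPM in KO and 148, 80.5 and 144 CPM in WT (log2 fold change 0.42, SE 0.24, adjusted p 0.396 by edgeR's quasi-likelihood test). mt-Nd6 had 14.1, 13.3 and 12.3 CPM in KO and 10.7, 5.67 and 13.5 CPM in WT (log2 fold change 0.42, SE 0.27), and mt-Atp8, with the largest p, had 19.4, 16.5 and 13.3 CPM in KO and 14.8, 8.49 and 18.0 CPM in WT (log2 fold change 0.26, SE 0.26). For the last pair the genotypes overlapped, WT replicate 3 reaching into the KO range. mt-Rnr1 had 16.2, 14.0 and 11.7 CPM in KO and 13.3, 6.89 and 12.5 CPM in WT (log2 fold change 0.36, SE 0.23), and mt-Rnr2 had 619, 575 and 499 CPM in KO and 483, 252 and 515 CPM in WT (log2 fold change 0.44, SE 0.28). Both rRNAs overlapped between genotypes. No tRNA gene passed the filter in the tumors, where mt-Tn had 4, 3 and 4 counts in KO and 11, 8 and 8 counts in WT.

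Markers of several cell types differed between the same tumor libraries, where 6.32% of all genes tested were called in either direction. Neutrophil markers summed to 310 to 354 CPM in KO and 231 to 261 CPM in WT without overlap, with 1 of 6 tested higher in KO and Camp not listed. Mast cell and basophil markers summed to 27 to 40.7 CPM in KO and 14.1 to 26 CPM in WT, also without overlap, with 0 of 4 tested called. Erythroid markers summed to 163 to 183 CPM in KO and 76.4 to 125 CPM in WT, with 3 of 5 tested higher in KO. T and NK cell markers summed to 8.92 to 15.5 CPM in KO and 22.3 to 49.2 CPM in WT, with 5 of 10 lower. The erythroid count of 3 was 1 without KO replicate 1 or 2 or WT replicate 1, and the T and NK cell count of 5 was 0 without KO replicate 1 or 2 and 3 without WT replicate 3. Monocyte and macrophage markers summed to 10800 to 11900 CPM in KO and 11200 to 12300 CPM in WT, with 0 of 10 called. Of the RNAs that stay in the nucleus, a sign of RNA content and quality, 1 of 3 tested was higher in KO (Neat1, log2 fold change 0.70, SE 0.13, adjusted p 0.0113 by edgeR's quasi-likelihood test), and the list summed to 409 to 546 CPM in KO and 261 to 368 CPM in WT. The part of these cells and RNAs in the mitochondrial values was not tested.

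**Figure D3:**
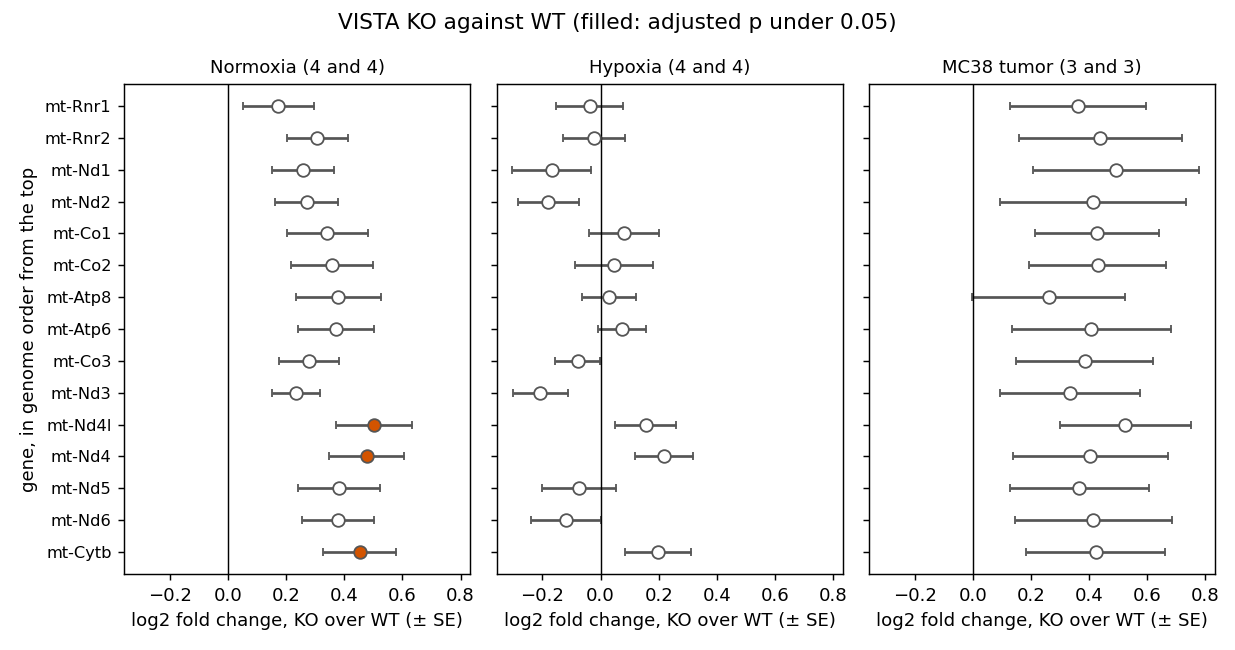
Log2 fold change of KO over WT (points, with SE as bars) for each mitochondrial protein and rRNA gene, in normoxia, hypoxia and MC38 tumors, filled where the adjusted p was under 0.05. The tRNA genes are not drawn. Only mt-Nd4l, mt-Nd4 and mt-Cytb in normoxia are filled, the hypoxia points of the protein genes lie on both sides of 0, and the tumor points are all above 0 with wide bars.

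Whether the effect of the knockout differed between the experiments was tested directly as an interaction. Between hypoxia and normoxia, 0 of 27 members were called by edgeR's quasi-likelihood test, against 0.477% of all genes, 9 had an unadjusted p under 0.05, and DESeq2 also called 0. The 27 include mt-Ti, mt-Ty, mt-Th and mt-Ts2, which passed the filter only through the normoxia libraries. The log2 difference of the effects, hypoxia minus normoxia, was below 0 for all 13 protein genes, again not separate observations, with a median of -0.35. It was -0.44 for mt-Nd3 (SE 0.13, adjusted p 0.187), -0.45 for mt-Nd2 (SE 0.16, adjusted p 0.341), -0.36 for mt-Co3 (SE 0.13, adjusted p 0.385) and -0.50 for mt-Nd6 (SE 0.18, adjusted p 0.385), all by edgeR's quasi-likelihood test. So the normoxia calls were not shown to be particular to normoxia.

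Between tumor and normoxia 0 of 20 members were called by edgeR's quasi-likelihood test, against 6.21% of all genes, with 0 at an unadjusted p under 0.05 and 0 called by DESeq2. Between tumor and hypoxia 0 of 20 were called by the same edgeR test, against 8.1% of all genes, with 3 at an unadjusted p under 0.05 and 0 called by DESeq2. Those 3 were mt-Nd1 (0.62, SE 0.27, adjusted p 0.159), mt-Nd3 (0.51, SE 0.22, adjusted p 0.159) and mt-Co3 (0.43, SE 0.20, adjusted p 0.199), as log2 differences of the effects, tumor minus hypoxia, by edgeR's quasi-likelihood test. The 20 include 5 tRNA genes (mt-Ta, mt-Tn, mt-Tc, mt-Ty and mt-Tp) that passed the filter only through the culture libraries. None of these had more than 11 counts in a tumor library, so their lack of a call carries little information. These comparisons share the hypoxia or normoxia libraries with those above.

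The cultures in hypoxia were also set against those in normoxia within each genotype, in 1 fit of the 16 culture libraries. This contrast holds oxygen together with the time point (24 hours given for hypoxia and day 4 for normoxia), with cytokines that are stated for normoxia alone and with 2 separately deposited count tables of different depth, which cannot be told apart. Single mitochondrial genes moved in opposite directions in it. In KO cells 4 of 27 members were higher in hypoxia and 17 lower by edgeR's quasi-likelihood test, against 26.1% of all 15293 genes higher and 25.6% lower. In WT cells 8 were higher and 14 lower, against 26.6% of all genes higher and 25% lower. In both genotypes 4 members were higher (mt-Atp8, mt-Atp6, mt-Nd6 and mt-Tp) and 14 were lower. The 14 include mt-Ti, mt-Ty, mt-Th and mt-Ts2, which passed the filter only through the normoxia libraries, where they were higher.

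Cell type markers differed strongly in the same contrast. Of all genes tested, 26.1% were higher and 25.6% lower in KO cells, and 26.6% and 25% in WT cells. Mast cell and basophil markers summed to 768 to 1109.9 CPM in hypoxia KO against 89.01 to 126 CPM in normoxia KO, with 8 of 8 higher, and to 497 to 763 CPM in hypoxia WT against 43.0 to 61.3 CPM in normoxia WT, with 7 of 8 higher. Eosinophil markers summed to 2313 to 4168 CPM in hypoxia KO against 125 to 188 CPM in normoxia KO, with 8 of 8 higher, and to 1165 to 1859.6 CPM in hypoxia WT against 94.6 to 123 CPM in normoxia WT, with 7 of 8 higher. Erythroid markers summed to 7.94 to 15.7 CPM in hypoxia KO and 34.7 to 118 CPM in hypoxia WT, with 4 of 4 tested higher, and stayed under 1 CPM in each normoxia library. Of the 12 neutrophil markers, 3 were higher and 4 lower in KO and 2 higher and 6 lower in WT. The part of this difference in cell content in the mitochondrial values was not tested.

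mt-Nd6 rose most. On the scale of the joint fit it had 1566, 1305, 1880.3 and 1789 CPM in hypoxia KO against 593, 501, 608 and 642 CPM in normoxia KO, and 2009, 1819.6, 1777 and 1479.9 CPM in hypoxia WT against 369, 406, 522 and 500.3 CPM in normoxia WT. All hypoxia libraries were well above all normoxia libraries. The log2 fold change was 1.48 (SE 0.13, adjusted p 3.76e-08) in KO and 1.98 (SE 0.13, adjusted p 1.37e-09) in WT by edgeR's quasi-likelihood test. mt-Nd5, the long complex I gene that shares 14 bases with mt-Nd6 on the opposite strand, had log2 fold changes of 0.16 in KO (not called) and 0.62 in WT.

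The ATP synthase genes rose with it. mt-Atp6 had 10928.5, 10839, 12424 and 12790.5 CPM in hypoxia KO against 6559, 5739.6, 7365 and 7510.0 CPM in normoxia KO, and 12242, 10569.7, 11109.5 and 10564 CPM in hypoxia WT against 4237, 4891, 5983 and 5827 CPM in normoxia WT. Again the conditions did not overlap in either genotype. The log2 fold change of mt-Atp6 was 0.79 in KO and 1.09 in WT (SE 0.11 in both), and that of mt-Atp8, which runs into it, was 0.56 in KO and 0.92 in WT (SE 0.13 in both).

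Among the genes that fell, mt-Nd3 had 160.0, 155, 145 and 170.3 CPM in hypoxia KO against 425, 399.9, 482 and 450.0 CPM in normoxia KO, and 213, 176, 187 and 149.7 CPM in hypoxia WT against 369.6, 358, 395 and 368 CPM in normoxia WT. Each hypoxia library was lower than each normoxia library. Its log2 fold change was -1.48 (SE 0.093, adjusted p 4.5e-10) in KO and -1.04 (SE 0.093, adjusted p 4.31e-08) in WT by edgeR's quasi-likelihood test. mt-Rnr2 had 597, 503, 523 and 554 CPM in hypoxia KO against 1507, 1367, 1419 and 1776 CPM in normoxia KO, and 641, 540.3, 593 and 433 CPM in hypoxia WT against 1191, 1113, 1192 and 1394 CPM in normoxia WT. Its hypoxia libraries too were all below the normoxia ones, with log2 fold changes of -1.48 in KO and -1.15 in WT (SE 0.11 in both).

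mt-Rnr1, which lies just upstream of mt-Rnr2 on the same transcript, differed less, with log2 fold changes of -0.49 in KO (adjusted p 0.00403) and -0.27 in WT (adjusted p 0.0815) by edgeR's quasi-likelihood test. Lower in both genotypes were also mt-Co1 (log2 fold change -0.88 in KO and -0.62 in WT), mt-Cytb (-0.77 in KO and -0.52 in WT) and mt-Nd4l (-0.70 in KO and -0.36 in WT). mt-Nd4 was called in KO alone (-0.54 in KO and -0.29 in WT), and mt-Co2 in neither (-0.35 in KO and -0.04 in WT). In WT alone mt-Nd1 (0.02 in KO and 0.44 in WT), mt-Nd2 (0.08 in KO and 0.53 in WT), mt-Co3 (0.16 in KO and 0.52 in WT) and mt-Nd5 were called higher, and the interaction above did not call any of these as different between the genotypes.

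Most tested tRNA genes were lower in hypoxia and 1 was higher, but mt-Ti, mt-Ty, mt-Th and mt-Ts2 were tested only because of their normoxia counts. They did not pass the filter in the hypoxia libraries alone, and their calls as lower carry that selection. In KO 10 of 12 tested were lower and 1 higher, and in WT 9 were lower and 1 higher, while mt-Ts1, for serine, was called in neither genotype. mt-Tl1 had 2.12, 2.29, 2.72 and 4.21 CPM in hypoxia KO against 15.8, 9.81, 11.4 and 10.2 CPM in normoxia KO, and 4.03, 4.09, 4.35 and 3.08 CPM in hypoxia WT against 8.95, 11.5, 8.02 and 10.2 CPM in normoxia WT. The conditions did not overlap in either genotype, and the log2 fold change was -2.05 in KO and -1.31 in WT (SE 0.20 in both). mt-Tn had log2 fold changes of -1.44 in KO and -1.23 in WT, and mt-Tc of -1.89 in KO and -1.59 in WT. mt-Tw was called in KO alone, at -1.15 in KO and -0.01 in WT.

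The tRNA gene that rose was mt-Tp, with 15.9, 13.8, 20.4 and 16.8 CPM in hypoxia KO against 10.8, 10.01, 11.2 and 8.29 CPM in normoxia KO, and 21.0, 21.4, 18.9 and 17.9 CPM in hypoxia WT against 11.3, 10.5, 9.97 and 7.57 CPM in normoxia WT. All hypoxia libraries were higher, with a log2 fold change of 0.73 in KO and 1.01 in WT (SE 0.13 in both). mt-Tp and mt-Nd6 both lie on the minus strand, but the calls were mixed on each annotated strand. Of 8 minus-strand members tested 2 were higher and 5 lower in each genotype. Of 19 plus-strand members 2 were higher and 12 lower in KO and 6 were higher and 9 lower in WT. Whether reads were counted by strand is not given, so the strand of the transcripts cannot be judged from this. These counts by strand include mt-Ti, mt-Ty, mt-Th and mt-Ts2, which passed the filter only through normoxia. The tRNA genes with the lowest counts gave imprecise values, since mt-Th, for histidine, had only 1 to 3 counts in each hypoxia library. The hypoxia libraries had more counts in all than the normoxia libraries.

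**Figure D4:**
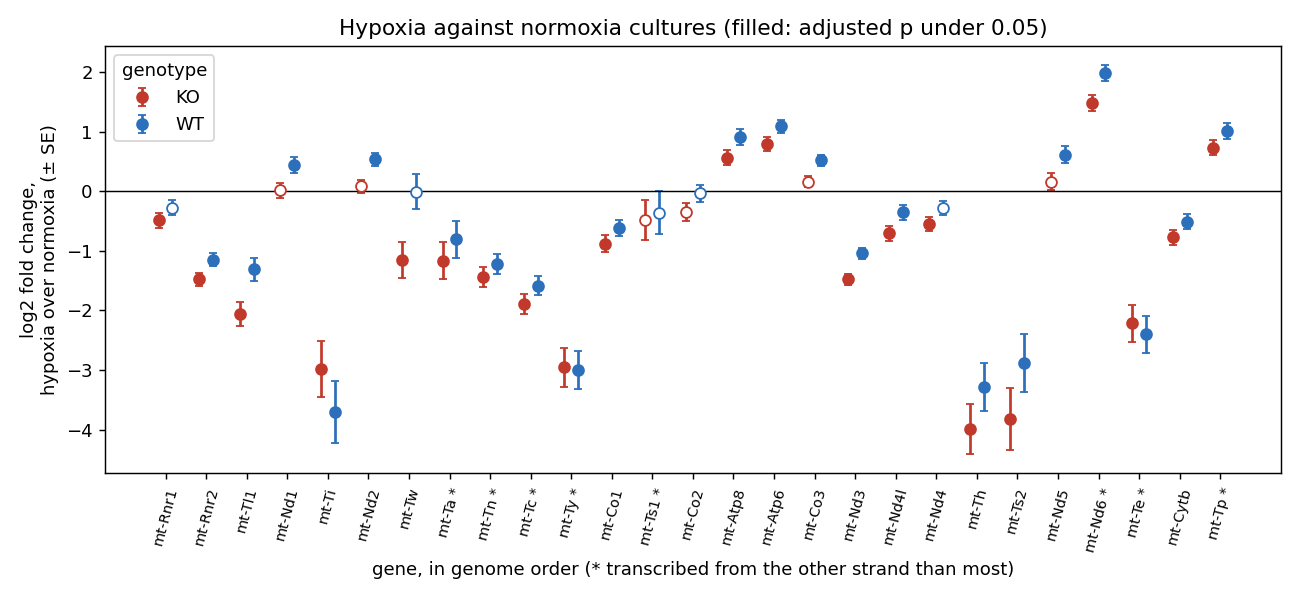
Log2 fold change of hypoxia over normoxia cultures (points, with SE as bars) for each tested mitochondrial gene, in KO and WT cells, filled where the adjusted p was under 0.05. mt-Nd6 (1.48 in KO and 1.98 in WT), mt-Atp6, mt-Atp8 and mt-Tp lie above 0 in both genotypes, while mt-Nd3, mt-Rnr2 and most tRNA genes lie below 0 in both.

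The nuclear copies shown by sequence above had counts that followed those of the genes they match. The pseudogenes with at least 10 counts in a library numbered 12, and together they held 2.72% of all counts in normoxia KO and 2.26% in normoxia WT, 2.76% in hypoxia KO and 2.72% in hypoxia WT, and 0.119% in tumor KO and 0.0894% in tumor WT. For some of the chromosome 1 copies that are identical to their gene over nearly its whole length, copy and gene had nearly the same count: the ratio of copy to gene was 0.9996 to 1.02 over the libraries for Gm28661 and mt-Co2 (0 differing bases of 681) and 0.9997 to 1.01 for Gm28437 and mt-Co3 (0 of 783). It was 0.881 to 1.05 for Gm10222 and mt-Nd4l and 0.928 to 1.12 for Gm28438 and mt-Nd3, which differ at 1 of 345 bases. For Gm10925 and mt-Atp6 (0 of 678) the copy had more counts than the gene, at a ratio of 1.28 to 1.37.

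Copies of part of a gene had part of its counts. Gm29216 covers 31.3% of mt-Co1 and had 0.311 of its counts in normoxia KO and 0.314 in normoxia WT, 0.275 in hypoxia KO and 0.284 in hypoxia WT, and 0.446 in tumor KO and 0.449 in tumor WT. Gm28439 covers 63.6% of mt-Nd4 and had 0.587 of its counts in normoxia KO and 0.582 in normoxia WT, 0.532 in hypoxia KO and 0.526 in hypoxia WT, and 0.458 in tumor KO and 0.414 in tumor WT. The copies on chromosome 2, which differ at more bases, had few counts by comparison, with ratios of 0.0184 to 0.0254 for Gm13341 and mt-Co2 (95.9% identical), 0.00166 to 0.0194 for Gm13340 and mt-Co1 (97.6% identical) and 0.00255 to 0.0535 for Gm13339 and mt-Nd2. Gm11407 on chromosome 4 and Gm4076 on chromosome 13, partial copies of mt-Nd5, had under 0.01 of its counts. In normoxia Gm28439 and Gm10222 were higher in KO just as mt-Nd4 and mt-Nd4l were (log2 fold changes of 0.49 and 0.45, adjusted p 0.0289 and 0.0338 by edgeR's quasi-likelihood test), which are thus not independent of those calls. How reads with several equal matches were counted is not given in the sources used here, so levels of mt-Co1, mt-Co2, mt-Co3, mt-Atp6, mt-Nd3, mt-Nd4 and mt-Nd4l are uncertain as to their source, while mt-Cytb, mt-Nd1, mt-Nd6 and the rRNA genes had no copy with 10 or more counts in a library. The source is uncertain for mt-Atp8 too, since Gm10925 carries the 43 bases it shares with mt-Atp6. Copies were sought among annotated transcripts only, so an unannotated copy of the rest of mt-Atp8 would have been missed.

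**Figure D5:**
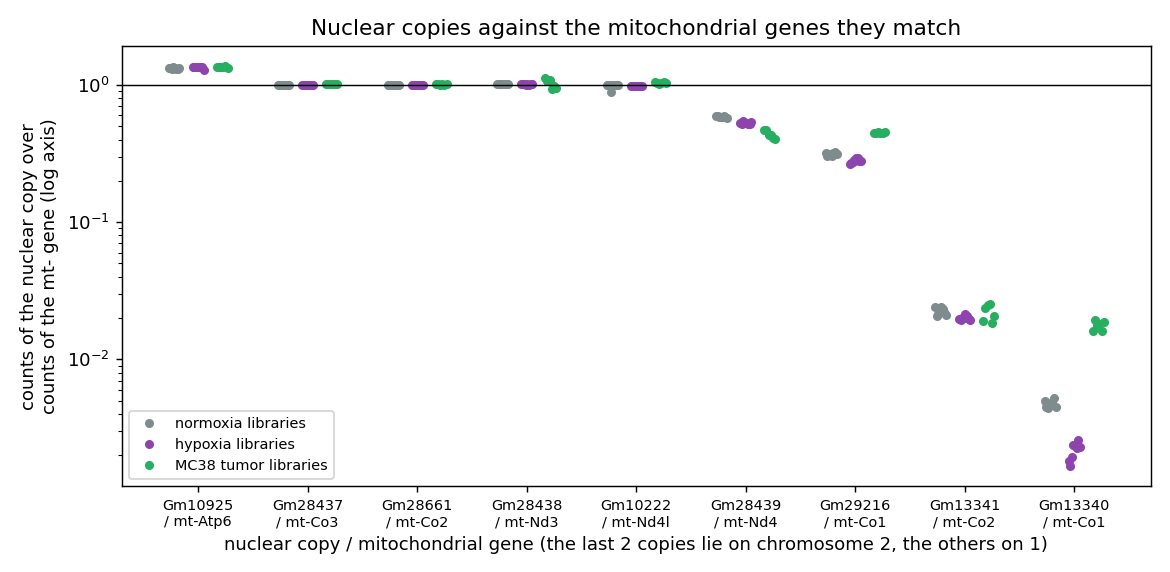
Counts of each nuclear copy divided by the counts of the mitochondrial gene it matches (log axis), with 1 point per library, KO left of WT within each experiment. Of the full-length copies on chromosome 1, those of mt-Co2, mt-Co3, mt-Nd3 and mt-Nd4l lie near the line of equality (0.9996 to 1.02 for Gm28661 over mt-Co2) and Gm10925 over mt-Atp6 lies above it (1.28 to 1.37), partial copies lie below it, and the more divergent copies on chromosome 2 far below it.

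The nuclear subunits of the same respiratory complexes were not higher by the test in any KO comparison. Counts of calls here and in the lists that follow are to be read against all genes tested. In normoxia 7.13% of those were higher in KO and 4.17% lower. In hypoxia 34.9% were called in either direction, and in the tumors 6.32%. Between hypoxia and normoxia 26.1% were higher and 25.6% lower in KO, and 26.6% and 25% in WT. No list was tested as a set. Of 73 nuclear subunits of complexes I, III, IV and V tested, 0 were higher and 5 lower in normoxia KO than in WT, with a median log2 fold change of -0.18. The 5 were Ndufa10 (-0.27, SE 0.073), Ndufa12 (-0.43, SE 0.12) and Ndufc2 (-0.31, SE 0.089) of complex I and Uqcrq (-0.36, SE 0.094) and Uqcrc2 (-0.25, SE 0.072) of complex III. These 5 calls rested on single libraries, since the 3 of complex I were 0 without KO replicate 3 or 4 or WT replicate 1, 2 or 4, 1 without KO replicate 1 and 7 without KO replicate 2, and the 2 of complex III were 0 without KO replicate 1 or 3 or WT replicate 1, 2 or 4. In hypoxia 0 were higher and 59 lower in KO, with a median of -0.36, among them Ndufa9 (-0.53, SE 0.080), Uqcr10 (-0.50, SE 0.074), Cox6b1 (-0.44, SE 0.068) and Atp5g1 (-0.85, SE 0.10). In the tumors 0 were higher and 1 lower (Ndufa9, -0.30, SE 0.066, not called without KO replicate 1 or 2 or WT replicate 1), with a median of 0.01. In hypoxia against normoxia 1 was higher and 56 lower in KO cells, and 4 were higher and 38 lower in WT cells. The 4 nuclear subunits of complex II, which has no mitochondrial subunit, gave 0 calls in normoxia, 4 lower in hypoxia and 0 in the tumors.

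Mitochondrial ribosomal proteins, which assemble on the RNAs of mt-Rnr1 and mt-Rnr2, were likewise lower or not called: 0 higher and 11 lower of 81 tested in normoxia KO (Mrpl52 -0.61, SE 0.087, and Mrpl55 -0.68, SE 0.11), 0 higher and 59 lower of 81 in hypoxia KO (Mrpl38 -0.66, SE 0.083, and Mrpl42 -0.65, SE 0.096) and 0 higher and 1 lower of 80 in tumor KO. The count of 11 ran from 3 (without WT replicate 1 or 4) to 20 (without KO replicate 2), and the count of 59 was 37 without WT replicate 3. Of 16 proteins of the outer membrane and matrix often used as a sign of mitochondrial content, 4 were lower in normoxia KO (Tomm20 -0.47, SE 0.099, Vdac1 -0.33, SE 0.088, Vdac3 -0.30, SE 0.077, and Tomm70a -0.40, SE 0.12), 14 in hypoxia KO (Phb2 -0.55, SE 0.076, and Hspe1 -0.72, SE 0.12) and 2 in tumor KO (Hspa9 -0.26, SE 0.068, and Vdac1 -0.64, SE 0.15), with none higher. The 4 in normoxia were 1 without KO replicate 1 or 3 or WT replicate 1, 2 or 4 and 7 without KO replicate 2, and the 2 in the tumors were 0 without KO replicate 1 or WT replicate 1 or 2. Their summed level was 1300 to 1810 CPM in KO and 1760 to 2190 CPM in WT in normoxia, 1290 to 1450 CPM in KO and 1600 to 1940 CPM in WT in hypoxia, and 1310 to 1380 CPM in KO and 1430 to 1520 CPM in WT in the tumors. The genotypes overlapped in normoxia alone.

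Of the nuclear genes that make, process or maintain mitochondrial nucleic acids, few passed the test in normoxia. In hypoxia, where 34.9% of all genes tested were called, calls are not by themselves particular to these genes. Of 11 transcription genes only Tefm, the mitochondrial elongation factor, was lower in normoxia KO (-0.46, SE 0.13, adjusted p 0.0471 by edgeR's quasi-likelihood test), a call kept only on leaving out KO replicate 2, and Tfam, which packages and transcribes mitochondrial DNA, had -0.25 (SE 0.11, adjusted p 0.146 by the same test). In hypoxia 3 were lower in KO, namely Mrpl12 (-0.87, SE 0.16), the polymerase gene Polrmt (-0.40, SE 0.085) and the rRNA methyltransferase and transcription factor relative Tfb1m (-0.43, SE 0.12), and in the tumors 0 were called. Of 23 RNA processing genes 0 were called in normoxia and in the tumors, while 1 was higher and 9 lower in hypoxia KO, with Elac2, which cuts tRNA 3′ ends, at -0.47 (SE 0.091) and Lrpprc, which stabilises the mRNAs, at -0.44 (SE 0.095). These 10 calls were 5 without KO replicate 1 and 6 without KO replicate 3 or WT replicate 1 or 3.

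Of 21 genes for upkeep of mitochondrial DNA, 0 were higher and 3 lower in normoxia KO, with the topoisomerase Top1mt at -0.76 (SE 0.16), and 3 were higher and 4 lower in hypoxia KO, with Top1mt at -0.77 (SE 0.15) and the nucleoside kinase Tk2 at 0.47 (SE 0.10). The 3 in normoxia were 0 without WT replicate 1 and 1 without KO replicate 3, and the 7 in hypoxia were 3 without WT replicate 3 and 4 without KO replicate 1, 2 or 3 or WT replicate 1. The 20 rRNA methyltransferases and translation factors gave 0 calls in normoxia, 0 higher and 7 lower in hypoxia KO (Tufm, -0.51, SE 0.071) and 0 in the tumors. Of 9 regulators of mitochondrial biogenesis, 0 were called in normoxia, 2 were lower in hypoxia KO (Ppargc1b, -0.64, SE 0.13, and Pprc1, -0.63, SE 0.13), and in the tumors Ppargc1b was higher (1.02, SE 0.16) and Myc lower (-0.63, SE 0.13) in KO. Mitophagy genes, which serve the removal of mitochondria, gave few calls, with 2 of 10 higher in normoxia KO (Optn 0.48, SE 0.13, and Pink1 0.60, SE 0.18), 3 higher in hypoxia KO (Optn 0.78, SE 0.10, Pink1 0.41, SE 0.11, and Ulk1 0.47, SE 0.13), and 1 higher (Optn 0.56, SE 0.14) and 1 lower (Bnip3 -0.43, SE 0.076) in tumor KO. The 2 in normoxia were 0 without KO replicate 3 or 4 or WT replicate 1 or 4. The list medians of the mitophagy genes were 0.05 in normoxia, 0.06 in hypoxia and -0.0042 in the tumors. Of the 4 RNAs that stay in the nucleus tested in the cultures, 0 were called in normoxia and 1 was higher in hypoxia KO. Malat1 had a log2 fold change of 0.49 (SE 0.16, adjusted p 0.0678) in normoxia KO and 0.43 (SE 0.11, adjusted p 0.0105) in hypoxia KO by edgeR's quasi-likelihood test.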

How the data were processed

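The authors deposited a raw count per gene and library in 3 tables (normoxia, hypoxia, tumor); per the submitters' processing notes they used Subread, featureCounts and DESeq2 on GRCm38.p6, with no versions or settings given. Strand and multi-mapping settings are not given in the sources used here. Per the labels' protocols, 100 ng of total RNA went into each library, and the Takara SMART-Seq kit was used. Oxygen condition of a column was taken from its table, and the unlabelled code of the KO culture columns was read as KO by elimination. Members were found through Ensembl identifiers in GENCODE M21. The members and gene lists were chosen with earlier results of these data known.

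Each experiment was fitted with edgeR 4.0.16 in R 4.3.3 (filterByExpr, TMM scaling, robust quasi-likelihood F test, Benjamini-Hochberg adjustment over all genes tested, threshold 0.05). A fit of the 16 culture libraries gave hypoxia against normoxia and the difference of the KO effects, and a fit of all 22 libraries, on genes present in all 3 tables, gave the differences with tumor. A printed level is CPM on TMM-scaled library sizes, with its own scaling in the joint fit, and a fold change is the fitted log2 ratio. A sum or share over members is a description. Copies in the nuclear genome were found with blastn 2.17.0 among transcripts, with Cep295, a protein gene with a tRNA-like stretch, not counted as a copy. Named in full were the rRNA genes, mt-Nd6, the 4 protein genes with the smallest p and the 1 with the largest per KO comparison, and the tRNA genes with most counts or the smallest p; of each list of nuclear genes up to 4 with the smallest p were eligible. Sequencing precision is limited by the 3 or 4 libraries per group rather than by depth for the protein genes.

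Alternatives were DESeq2 1.42.0, other scalings, no filter, a fold threshold of 1.2, each library left out, a replicate block and other denominators. The tests were tried on simulated data. No pair of libraries of a group differed by less than a chi-square per degree of freedom of 4.85, so none was counted as a copy of another. Same-numbered KO and WT libraries were not treated as pairs, since in no experiment did every pair correlate above 0.1: their deviations correlated at -0.0571 to 0.372 in normoxia, -0.159 to 0.0189 in hypoxia and 0.0797 to 0.218 in the tumors.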

Additional observations from a re-analysis of the deposited data

Results flagged for a closer look

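Among 68 groups of 4 libraries looked at, chance alone would single out about 1 in 20, and 2 held a library far from the others by Dixon's gap test. mt-Nd1 in normoxia KO replicate 2 was at 2530 CPM while the other KO libraries were at 3090 to 3190 CPM, a gap of 0.841 of the group's range. mt-Atp8 in hypoxia WT replicate 1 was at 2030 CPM while the other WT libraries were at 1680 to 1700 CPM, a gap of 0.93 of the range.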

How the results depend on the processing

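The 3 calls in normoxia KO were near the threshold. Their number was 8 with DESeq2, 0 against a fold threshold of 1.2, 6 without KO replicate 4 and WT replicate 3 together, which stood apart in an earlier principal component plot, and 0 to 8 with each library left out. In hypoxia KO the number of calls was 1 with library size alone, 6 without a filter (2 higher and 4 lower) and 0 to 2 with each library left out, and for tumor minus hypoxia it was 0 to 1. With a replicate block, normoxia gave 11 calls, and the block changed none of the counts of 0; the numbers were not taken as pairs, and 3 of 8, 0 of 8 and 6 of 6 libraries correlated best with their own number in normoxia, hypoxia and tumor. The block could not be fitted for hypoxia against normoxia. Without the 10 largest other genes in the denominator, the mitochondrial share was 5.84% in normoxia KO and 4.78% in normoxia WT. In hypoxia it was then 4.94% in KO and 4.88% in WT, and in the tumors 0.262% in KO and 0.195% in WT. Log2 fold changes near 0 turned sign: with library size alone, mt-Tp in normoxia (-0.0572), mt-Atp8 in hypoxia KO against WT (-0.0092), and mt-Nd1 (-0.0717) and mt-Nd2 (-0.0087) in KO hypoxia against normoxia, with mt-Nd1 at -0.0079 without a filter. With each library left out they ran from -0.0835 to 0.117 for mt-Tp in normoxia, from -0.0225 to 0.0973 for mt-Atp8, -0.116 to 0.0506 for mt-Rnr1 and -0.126 to 0.0504 for mt-Rnr2 in hypoxia, and, for hypoxia against normoxia, from -0.0615 to 0.0974 for mt-Nd1 in KO and from -0.156 to 0.0439 for mt-Co2 and -0.207 to 0.132 for mt-Tw in WT. The cause was not tested. Library size alone moved the median of all genes to -0.11 in normoxia KO against WT, to -0.11 (KO) and -0.15 (WT) in hypoxia against normoxia and to 0.12 in the difference tumor minus normoxia; the median of the members in normoxia KO was then 0.20. Scaling without the mitochondrial genes and their copies, chosen after seeing the data, gave the same counts of calls in all 8 comparisons. Depth limits the tRNA genes, none of which passed the filter in the tumor libraries alone.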
